A study of Mus musculus with 16 samples.

Results

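The genes for the Tal1, Lyl1, Lmo2, Ldb1 and Tcf3 proteins were followed through the peak lists of 16 ATAC-Seq libraries, an assay of where a transposase can cut chromatin. The cells were HSPCs, the stem and progenitor cells of blood, from mouse bone marrow. Overlapping peaks of the 16 lists were joined into 1 region. Regions were taken from the gene body and 50 kb either side of Tal1, 80 kb either side of Lmo2 and 10 kb either side of the other 3 genes. This gave 119 of 296215 merged regions: 29 at Tal1, 58 at Lmo2, 8 at Lyl1, 12 at Ldb1 and 12 at Tcf3. The 4 genotypes were compared with 4 libraries each, and every library pooled cells of 2 age-matched mice of 1 genotype. WT mice carried Ep300 fl/fl without Cre, and P300KO mice carried Ep300 fl/fl with Mx1-Cre. TET2KO mice carried Ep300 fl/fl on a Tet2-/- background, and P300KO_TET2KO mice carried both Mx1-Cre;Ep300 fl/fl and Tet2-/-. Per the study's methods all mice were C57BL/6, of both sexes, and all 4 genotypes received poly(I:C), which switches on Cre from the interferon-inducible Mx1 promoter and so deletes Ep300. Only groups lacking p300 carried that Cre, so loss of p300 and presence of Cre cannot be told apart. Poly(I:C) was given at 6 to 8 weeks of age, and per the methods experiments followed 2 weeks later unless another time was named; none is named for these libraries. The labels name the cells HSPCs, and the study also refers to cells of its ATAC-Seq comparison as LSK, that is lineage-, Sca1+ and c-Kit+.

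Tal1 and Lyl1 are basic helix-loop-helix factors that bind E-box sequences as dimers with E proteins such as the products of Tcf3. Lmo2 is a LIM-only protein without DNA binding of its own. It bridges the dimer to Ldb1, an adaptor that self-associates, and to Gata factors, so that the assembly can sit on an E-box and Gata composite. In blood stem cells these genes are themselves read from several enhancers, among which a stem cell enhancer and an erythroid enhancer downstream of Tal1 are the best known.

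The reference sequence around the summits of regions that carry the account below is shown first, on the plus strand of mm10 (RefSeq GRCm38.p6), 100 bases either side of each summit. Capitals mark the searched strings on either strand. The Gata string was AGATAA, also taken with its first letter as T. The E-box string was CAGNTG, the Ets string AGGAAG and the Runx string TGTGGT. The Tal1 region at +39.7 kb, the erythroid enhancer position, is shown at chr4:115095982-115096182. The strongest distal Lmo2 region, at -12.8 kb, is shown at chr2:103945038-103945238. The -55.6 kb Lmo2 region, which was seen in few libraries lacking Tet2, is shown at chr2:103902308-103902508. At the Lyl1 start 30 bases are shown, chr8:84701666-84701695, because they held the composite of CTG followed after 9 bases by AGATAA, read here on the opposite strand with both parts in capitals.
Tal1 +39.7 kb: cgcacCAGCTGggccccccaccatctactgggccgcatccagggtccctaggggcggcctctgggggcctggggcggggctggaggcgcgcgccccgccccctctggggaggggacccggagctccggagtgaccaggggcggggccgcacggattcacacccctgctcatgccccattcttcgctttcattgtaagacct
Lmo2 -12.8 kb: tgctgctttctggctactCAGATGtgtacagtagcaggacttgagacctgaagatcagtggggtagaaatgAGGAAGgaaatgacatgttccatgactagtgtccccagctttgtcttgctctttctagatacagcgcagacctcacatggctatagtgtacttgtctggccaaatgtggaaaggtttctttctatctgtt
Lmo2 -55.6 kb: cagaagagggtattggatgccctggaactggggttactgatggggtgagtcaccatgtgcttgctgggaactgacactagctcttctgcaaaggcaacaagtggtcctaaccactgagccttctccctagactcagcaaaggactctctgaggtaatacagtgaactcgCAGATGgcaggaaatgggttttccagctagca
Lyl1 start: agacccTTATCTgcacaggccCAGcatcct

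The +39.7 kb window of Tal1 held 1 E-box string alone. The -12.8 kb Lmo2 window held 1 E-box and 1 Ets string, and the -55.6 kb window held 1 E-box string. Over all 119 regions of the 5 genes, 14 (11.8%) held a Gata string within 100 bases of the summit, 52 (43.7%) an E-box string, 45 (37.8%) an Ets string and 18 (15.1%) a Runx string. The shares over all 296215 merged regions were 14.8%, 46.8%, 37.7% and 22% in the same order. The composite of CTG and AGATAA 7, 8 or 9 bases apart, whose second part is also a Gata string, was found in 1 region of the 5 genes, the Lyl1 start, and in 0.884% of all merged regions. Among regions with a peak in all 16 libraries and over 3 kb from any annotated start, 9 of the 18 at these genes (50%) held an E-box string, against 49.3% of 18562 such regions in the genome. These are matches of letters and not sites of binding.

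The position of a peak in its own list was used as the measure of strength. A rank percentile orders the peaks of 1 library by their −log10 p, with 100 for the strongest. Lists held 86039 to 110055 peaks in replicates 1 and 2 of the 4 genotypes, which carry a label naming a merged peak file (deposit set 1), and 130610 to 137335 in replicates 3 and 4, which do not (deposit set 2). The study's methods state a least number of reads sought per sample. The depth of each library is unknown because no read counts were used, so a site without a peak is one not called in that list. As a check of the labelled cell type, regions over the annotated starts of Kit, Cd34, Hlf and Flt3, genes of stem and progenitor cells, had a peak in 16 of 16 libraries with median percentiles of 91.9 to 97.6. That of Ly6a had one in 15, and that of Mecom in 0; an annotated start is the outermost one of a gene and need not be the promoter in use. Starts of Cd3e, Pax5, Ly6g, Csf1r, Klf1, Epor and Gp1bb had a peak in 0 of 16 libraries, those of Cd79a in 3, Hba-a1 in 5, Cd8a in 8 and Cd4 in 10. Starts of Itgam, Itga2b and Pf4, markers of mature myeloid and megakaryocytic cells, had one in 16 of 16, with medians of 80.3 to 91.1. Whether other cells had a part in the values below was not tested.

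A peak in all 16 libraries was found for 33 of the 119 regions at the 5 genes (27.7%), against 13.3% of all merged regions, and a peak in 1 library for 36 (30.3%), against 45.6%. The shared regions were 11 of 29 at Tal1, 4 of 8 at Lyl1, 13 of 58 at Lmo2, 2 of 12 at Ldb1 and 3 of 12 at Tcf3. Of all of them, 69 of 119 regions (58%) lay more than 3 kb from any annotated start, against 72.4% in the genome. The rest were 27 regions seen in 8 to 15 libraries and 23 seen in 2 to 7.

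At Tal1 (chr4:115056426-115071755, plus strand) the 11 shared regions ran from -18 kb, in an exon of the neighbouring gene Stil, to +47.2 kb (distances are from the gene start to the summit, along the gene). The region over the gene start (chr4:115056380-115057573, summit at +0.6 kb, in an intron) had the highest mean percentile, 92.2. The region at +6.9 kb, in an exon of Tal1, had a mean of 86.9. Outside the gene, the -8.5 kb region (chr4:115047612-115048676, intergenic) had a mean of 85.1 and the -3.7 kb region (chr4:115052546-115053026, intergenic) one of 67.6.

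**Figure D1:**
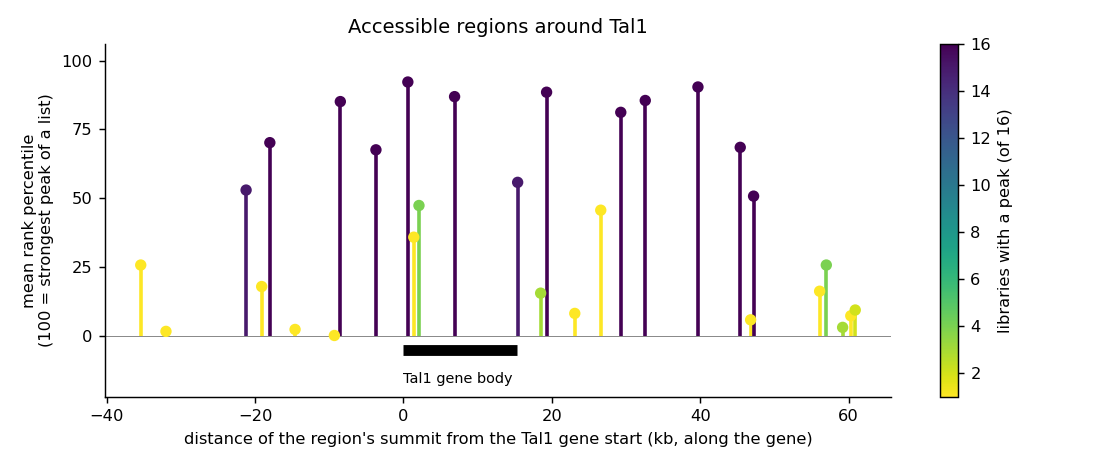
Accessible regions around Tal1. Each line is 1 of 29 merged regions, placed by the distance of its summit from the gene start in kb and as high as its mean rank percentile over the libraries that had it; colour gives the number of those libraries, and the 11 regions in 16 libraries include the 92.2 of the gene start and the 90.4 of the +39.7 kb region.

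Both known enhancer positions of Tal1 ranked high in every library, with mean percentiles of 88.5 for the stem cell enhancer and 90.4 for the erythroid enhancer. The stem cell enhancer position (intergenic, +19.3 kb) had percentiles of 84.4, 89, 91.2 and 90.4 in the 4 WT libraries and of 86.1, 82.9, 91.8 and 92.7 in the P300KO libraries. It had 86, 86.4, 90.7 and 91.2 in the TET2KO libraries and 85.7, 83.1, 92.5 and 92.1 in the P300KO_TET2KO libraries. Every genotype overlapped every other, and the split was by deposit set, with 82.9 to 89 in set 1 and 90.4 to 92.7 in set 2. The limma fit put libraries lacking p300 at -0.309 ± 0.908 percentile points (SE, 8 against 8 libraries, 95% interval -2.22 to 1.6, adjusted p = 0.916) and libraries lacking Tet2 at -0.0884 ± 0.908 (interval -2 to 1.82, adjusted p = 0.981). Such full separation of the sets, set 2 above set 1, was seen in 3 of the 33 shared regions (9.09%), the others being Tal1 -8.5 kb and Lmo2 +43.3 kb, and in 19.6% of all 39310 shared regions.

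The erythroid enhancer position (chr4:115095498-115097104, intergenic, +39.7 kb, beyond the neighbouring gene Pdzk1ip1) had percentiles of 83.4, 92.5, 89.3 and 91.3 in WT. They were 90.7, 92, 89.7 and 92.1 in P300KO, 91.3, 87.1, 90.4 and 93.1 in TET2KO, and 90.1, 89, 92.4 and 91.4 in P300KO_TET2KO. The lowest of the 16 was WT replicate 1 and the highest TET2KO replicate 4, and all genotypes overlapped. The difference with p300 loss was 1.14 ± 1.09 points (limma, interval -1.15 to 3.42, adjusted p = 0.693), or 0.242 without WT replicate 1, and that with Tet2 loss 0.464 ± 1.09 (interval -1.82 to 2.75, adjusted p = 0.898). Within single libraries the +39.7 kb region ranked above the +19.3 kb region in 9 of 16, of which 7 were in set 1 and 2 in set 2. These were the strongest of the 7 shared Tal1 regions over 3 kb from a start in 9 and 7 libraries, respectively.

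The Tal1 start varied little. It ranged from 90.8 to 92.3 in WT, 91.2 to 93.6 in P300KO, 90.9 to 92.3 in TET2KO and 92.6 to 93.9 in P300KO_TET2KO, so the double knockout libraries lay above all WT and TET2KO libraries, overlapping the P300KO libraries. Of all 39310 shared regions 0.453% were separated in this way, which was looked up after these values were seen. The limma difference of P300KO_TET2KO from TET2KO was 1.56 ± 0.694 points (unadjusted p = 0.0379, Benjamini-Hochberg adjusted p = 0.869). With p300 loss over both backgrounds it was 1.11 ± 0.491 points (interval 0.0778 to 2.14, limma adjusted p = 0.347), with 1.42 in set 1 and 0.799 in set 2. Weaker shared regions varied more, such as the -3.7 kb region, which ran from 46.3 in WT replicate 1 to 82.2 in WT replicate 2. Over all 33 regions the median SD across the 16 libraries, centred on each deposit set, was 9.05 points for those with a mean of 50 to 70, 4.96 for 70 to 85 and 1.31 above 85, against 8.81, 4.73 and 1.32 for all shared regions.

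Lmo2 (chr2:103957986-103981878, plus strand) has a distal start at the beginning of the annotated gene and a cluster of proximal starts at +11.5 to +13.2 kb. The distal start itself lay in no merged region. The nearest, at -0.3 kb (chr2:103957653-103957881, intergenic), had a peak in 2 libraries, both WT. On the other side the +0.3 kb region (chr2:103958191-103958555, intron) had a peak in 11 of 16 libraries at percentiles of 3.79 to 35.2, 7 of them among the 8 lacking p300 and 4 among the 8 with p300. An equal difference the other way was seen at -16.8 kb (chr2:103941114-103941530, intergenic), in 0 of 8 lacking p300 and 3 of 8 with p300. The proximal promoter (chr2:103969291-103970854, summit at +11.6 kb) had a peak in all 16 libraries, with a mean of 90.8. It ranged from 90.4 to 91.8 in WT, 91.8 to 93.4 in P300KO, 87.3 to 91.3 in TET2KO and 88.7 to 91.4 in P300KO_TET2KO. The 2 lowest libraries were TET2KO replicates 1 and 2. Loss of Tet2 went with -1.88 ± 0.668 points (limma, interval -3.29 to -0.48, unadjusted p = 0.0114, adjusted p = 0.322), made of -3.55 in set 1 and -0.221 in set 2.

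**Figure D2:**
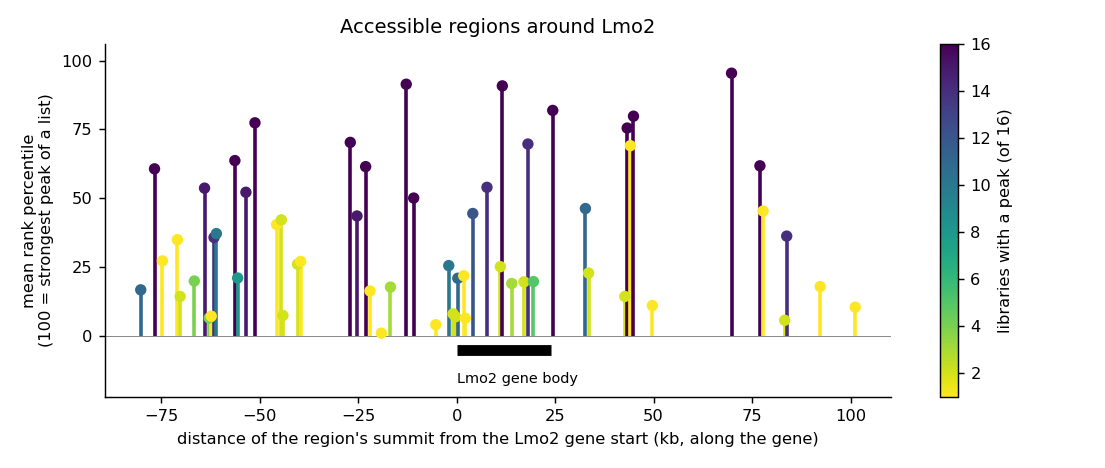
Accessible regions around Lmo2. Each line is 1 of 58 merged regions, placed by the distance of its summit from the gene start in kb and as high as its mean rank percentile; colour gives the number of libraries with a peak, and the tallest lines in 16 libraries are the start of the neighbouring gene Fbxo3 (95.4, +69.8 kb), the -12.8 kb region (91.4) and the proximal promoter (90.8).

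The strongest distal region of the locus ranked close to the proximal promoter. It lay at -12.8 kb (chr2:103944801-103946538, intergenic) and was the strongest of the 11 shared Lmo2 regions over 3 kb from a start in 16 of 16 libraries. Its percentiles were 94.7, 93.6, 91.5 and 91.9 in WT, 95.1, 90.3, 90.2 and 89 in P300KO, 91, 93.2, 89.9 and 91.5 in TET2KO, and 90.2, 90.6, 89.5 and 89.5 in P300KO_TET2KO. All 4 double knockout libraries lay below all 4 WT libraries, as in 3.45% of the 39310 shared regions, and overlapped both single knockouts. The difference of P300KO_TET2KO from WT was not tested. With p300 loss it was -1.61 ± 0.685 points (limma, interval -3.05 to -0.174, unadjusted p = 0.0301, adjusted p = 0.325), -1.59 in set 1 and -1.63 in set 2. It ranked above the proximal promoter in 10 of 16 libraries, including 4 of 4 WT, 1 of 4 P300KO, 3 of 4 TET2KO and 2 of 4 P300KO_TET2KO. By deposit set these were 7 in set 1 and 3 in set 2.

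The other 10 shared distal Lmo2 regions spanned -76.7 to +77 kb. The highest were at +24.4 kb, just past the gene end in an intron of 4931422A03Rik (chr2:103981918-103983179, 78.7 to 85.2), at +44.9 kb (71.3 to 83.9) and at -51.2 kb (chr2:103906271-103907244, 66.8 to 87.8). The least even was at -76.7 kb, which ran from 4.79 in WT replicate 1 to 77.9 in WT replicate 4. The +77 kb region, in an intron of Fbxo3, ran from 11.4 in WT replicate 1 to 77.9 in P300KO replicate 3. It had the largest difference with p300 loss of the 33 regions, 15.9 ± 5.71 points (limma, interval 3.88 to 27.9, unadjusted p = 0.0123, adjusted p = 0.234), 21.3 in set 1, which holds that WT library, and 10.4 in set 2. Without WT replicate 1 it was 9.96 points (limma adjusted p = 0.137).

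The Lyl1 start (chr8:84700831-84701925; gene at chr8:84701457-84704715, plus strand) was in the same band as that of Tal1. Its percentiles ranged from 92.4 to 95.1 in WT, 93.8 to 95.1 in P300KO, 90 to 94.5 in TET2KO and 92.1 to 95.3 in P300KO_TET2KO, and all genotypes overlapped. A region 1.4 kb before the start (chr8:84699829-84700405), nearest to the start of Trmt1, was slightly stronger, with a mean of 95.3. Its percentile was lower with p300 loss by -0.961 ± 0.414 points (limma, unadjusted p = 0.0321, adjusted p = 0.333), -0.914 in set 1 and -1.01 in set 2. The gene lies within the annotated span of Nfix, so the regions at +6.3 and +7.9 kb belong to that gene as much as to Lyl1. The +3.2 kb region, in the last exon of Lyl1, was seen in 7 of 8 libraries lacking p300 and 4 of 8 with p300, at percentiles of 56 to 69.6.

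Ldb1 and Tcf3 had their leading regions at starts, which in the Tcf3 window was that of a neighbouring gene. At Ldb1 (chr19:46031570-46045214, minus strand) the strongest was at +5.6 kb (chr19:46038921-46040016), over an internal start, with percentiles of 93.6 to 96.8 in the 16 libraries. The region over the gene start (chr19:46044776-46046338), which also lies nearest to the start of Pprc1, had 86.3 to 88.4 in WT, 84.5 to 87.3 in P300KO, 85.6 to 89.1 in TET2KO and 84.2 to 88.4 in P300KO_TET2KO. The Ldb1 +3.1 kb region (chr19:46041748-46042281, intron) was missing from 2 of 16 libraries, P300KO replicates 1 and 2, and so was in 6 of 8 libraries lacking p300 and 8 of 8 with p300. The +16.1 kb region had the reverse, 8 of 8 and 6 of 8. At Tcf3 (chr10:80409514-80433647, minus strand), the E protein gene, the start (chr10:80433181-80434520) had percentiles of 97.5 to 99.3 and was the strongest of the 5 genes' starts in mean, 98.7. The other shared regions of that window lay nearest to starts of neighbouring genes. These were Mbd3 at +33.9 kb (chr10:80398709-80400242), with a higher mean of 99.5, and Uqcr11 at +26.8 kb, with a mean of 91.4. The strongest region over 3 kb from a start was weak at both genes: at Ldb1 -5.4 kb, in an intron of Pprc1, it had 30 to 77.2 in 15 libraries, and at Tcf3 -9.5 kb 16 to 51.5 in 11 libraries. The regions over the outermost starts, with the proximal promoter for Lmo2, whose outermost start lay in no region, were ordered by mean percentile as Tcf3 98.7, Lyl1 93.4, Tal1 92.2, Lmo2 90.8 and Ldb1 86.9. By its internal start at +5.6 kb, with a mean of 95.7, Ldb1 would come after Tcf3 and not last. Tcf3 lay above the other 4 in every library, and each of the other neighbours in that order overlapped in its range over the libraries.

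**Figure D3:**
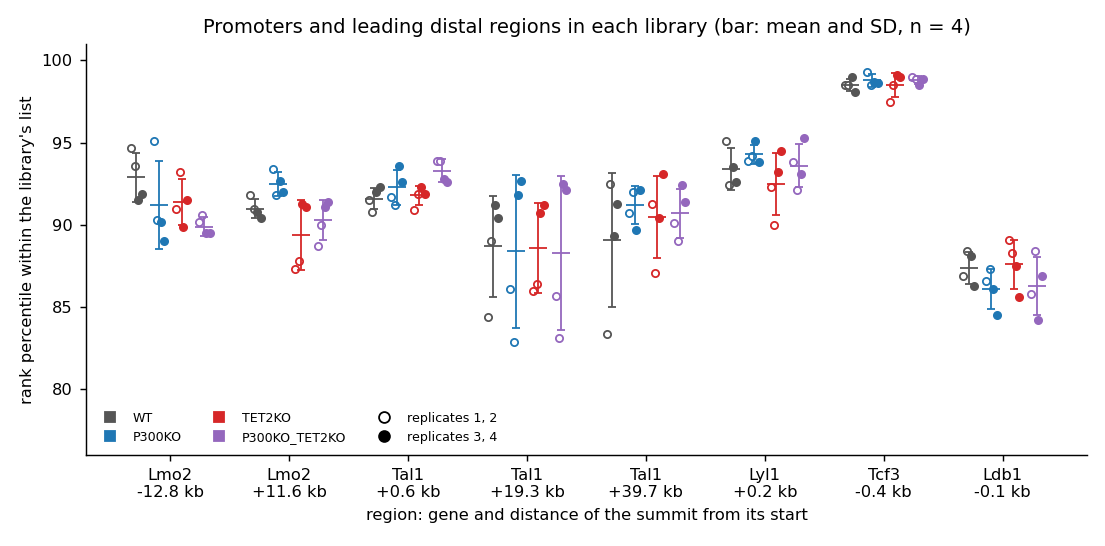
Rank percentile (y axis, which does not start at 0) of 8 start and distal regions in each library. Points are libraries, open for replicates 1 and 2 and filled for replicates 3 and 4, and bars give the mean and SD of 4 libraries of a genotype; at Tal1 +19.3 kb the open points lie at 82.9 to 89 and the filled points at 90.4 to 92.7 in all genotypes.

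Region counts were compared next, as a measure of how many elements were called at each gene. Tal1 had 13, 13, 14 and 13 regions in the WT libraries (13.2 ± 0.5, SD, n = 4), 14, 17, 14 and 15 in P300KO (15 ± 1.41), 15, 14, 16 and 14 in TET2KO (14.8 ± 0.957) and 14, 15, 16 and 16 in P300KO_TET2KO (15.2 ± 0.957). Libraries lacking p300 averaged 15.1 and libraries with p300 14, a difference of 1.12 regions (two-sided exact permutation test within deposit set and Tet2 background, p = 0.0741, n = 8 against 8), with 1.25 in set 1 and 1 in set 2. It passed at a −log10 q of at least 2 (1.38, exact permutation p = 0.0123), with 50% of a region covered (1.75, exact permutation p = 0.0247) and without TET2KO replicate 1 or 3 or P300KO_TET2KO replicate 1, and was 0.75 without P300KO replicate 2. With Tet2 loss the difference was 0.875 (exact permutation p = 0.207), against 1.62 at a −log10 q of at least 2 (exact permutation p = 0.00617), 0.25 among the strongest 50000 peaks of each list, 0.5 without P300KO replicate 1 and 1.25 without P300KO replicate 2 (exact permutation p = 0.00926). The background for this test is the share of all protein-coding genes with the same window that reach p under 0.05, which was 6.49% for p300 loss and 5.73% for Tet2 loss. At a −log10 q of at least 2 the lists kept unequal shares of their peaks. WT replicate 1 kept the fewest, 44349 of 98544, and the other libraries kept 61343 to 130142. WT replicate 2 kept 69546 of 110055. Whether this had a part in the differences at that setting was not tested.

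Lmo2 was the 1 locus of the 5 with an unadjusted p under 0.05, and it had fewer regions without Tet2. It had 26, 28, 34 and 33 regions in WT (30.2 ± 3.86), 25, 26, 29 and 29 in P300KO (27.2 ± 2.06), 21, 21, 31 and 29 in TET2KO (25.5 ± 5.26), and 22, 26, 31 and 27 in P300KO_TET2KO (26.5 ± 3.7). In every genotype replicates 1 and 2 had fewer than replicates 3 and 4. Libraries lacking Tet2 averaged 26 and libraries with Tet2 28.8, a difference of -2.75 (exact permutation p = 0.0309, n = 8 against 8; adjusted over 21052 genes by Benjamini-Hochberg, p = 0.696), with -3.75 in set 1 and -1.75 in set 2. Of all genes with an 80 kb window, 6.61% reached p under 0.05 for Tet2 loss and 7.37% for p300 loss. Among stronger peaks it was smaller, at -0.25 (exact permutation p = 1) for a −log10 q of at least 2 and -0.625 (exact permutation p = 0.491) among the strongest 50000 peaks of each list, an equal number for each library. It was -2.25 without P300KO_TET2KO replicate 1 or 4 (exact permutation p = 0.0586 and 0.0818). With p300 loss the difference at Lmo2 was -1 (exact permutation p = 0.42), with 0.75 in set 1 and -2.75 in set 2. Its sign turned at a −log10 q of at least 2 (1.25), among the strongest 50000 peaks (1.12) and with 50% of a region covered (0.375), and it was -1.5 to -0.5 with 1 library left out.

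**Figure D4:**
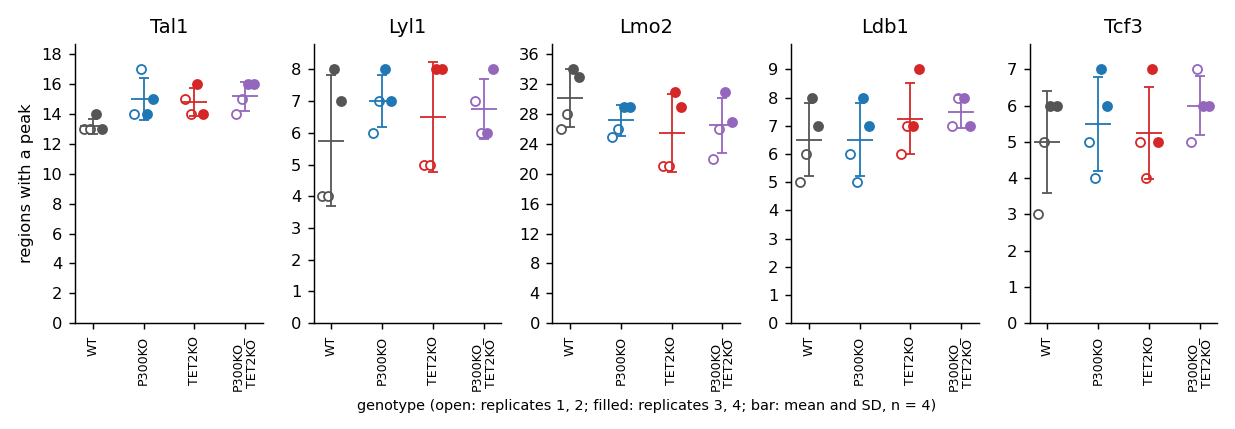
Regions with a peak at each of the 5 loci, by genotype. Points are libraries, open for replicates 1 and 2 and filled for replicates 3 and 4, and bars give the mean and SD of 4 libraries; the WT libraries have 13 or 14 regions at Tal1 and 26 to 34 at Lmo2.

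Lyl1, Ldb1 and Tcf3 showed no difference past the threshold when all called peaks were counted. Lyl1 had means of 5.75, 7, 6.5 and 6.75 regions in WT, P300KO, TET2KO and P300KO_TET2KO, Ldb1 had 6.5, 6.5, 7.25 and 7.5, and Tcf3 had 5, 5.5, 5.25 and 6. The differences with p300 loss were 0.75, 0.125 and 0.625 (exact permutation p = 0.241, 1 and 0.296), and those with Tet2 loss 0.25, 0.875 and 0.375 (exact permutation p = 0.718, 0.111 and 0.611). With 1 library left out the Tcf3 difference was 0.375 to 0.875 with p300 loss, lowest without WT replicate 1, TET2KO replicate 4 or P300KO_TET2KO replicate 2, and 0.125 to 0.625 with Tet2 loss. The Lyl1 difference was 0.5 to 1 with p300 loss, lowest without P300KO_TET2KO replicate 4, and 0 to 0.5 with Tet2 loss, where the same library gave 0. Tcf3 with p300 loss passed at a −log10 q of at least 2 (0.75, exact permutation p = 0.0417) and Ldb1 with Tet2 loss with 50% of a region covered (1.75, exact permutation p = 0.0278), and Ldb1 with p300 loss turned to -0.75 among the strongest 50000 peaks. Among all genes with a 10 kb window, 4.57% and 3.88% reached p under 0.05 for p300 and Tet2 loss. P300KO_TET2KO against TET2KO differed by 0.5 regions at Tal1, 0.25 at Lyl1, 1 at Lmo2, 0.25 at Ldb1 and 0.75 at Tcf3. With 1 library left out the difference ran from 0 to 1 at Tal1, -0.25 to 0.75 at Lyl1 and Ldb1, 0 to 2 at Lmo2 and 0.25 to 1.25 at Tcf3. The exact permutation p with all libraries ranged from 0.556 to 1, and with 36 arrangements within sets it could not go below 0.0556.

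The rank of single regions was then compared between genotypes. The limma fit covered 39310 regions with a peak in all 16 libraries, of which 33 lie at the 5 genes, so the other 86 regions of these genes were not tested. Of the 33, 0 passed an adjusted p of 0.05 for p300 loss and 0.661% of all tested regions did. For Tet2 loss 0 passed, against 0.247% of all, for P300KO_TET2KO against TET2KO 0, against 0.0687%, and for the interaction of both losses 0, against 0%. An unadjusted p under 0.05 was reached by 4 of the 33 for p300 loss and 4 for Tet2 loss, 1 for P300KO_TET2KO against TET2KO and 0 for the interaction. The shares over all tested regions were 12.8%, 10.7%, 5.57% and 4.59% in the same order, so that 4 of 33 is near the background. The median difference over the 33 regions was 0.051 points with p300 loss, against 0.0194 over all 39310, and -0.607 with Tet2 loss, against 0.114. The Tal1 +32.6 kb, Lmo2 +69.8 kb, Lyl1 -1.4 kb and Lyl1 +7.9 kb regions are named because of these p-values, after their values were seen. The lowest adjusted p in the limma fit was 0.199, for the Tal1 +32.6 kb region (chr4:115088579-115089339), an exon of Pdzk1ip1 near its start, where libraries lacking Tet2 were 3.53 ± 1.03 points higher (interval 1.37 to 5.69), 3.73 in set 1 and 3.33 in set 2. Its percentiles ran from 79.9 to 87.4 in WT, 80.3 to 87.3 in P300KO, 82.6 to 88.8 in TET2KO and 84.9 to 90.9 in P300KO_TET2KO. The remaining regions with an unadjusted p under 0.05 for Tet2 loss were the Lmo2 proximal promoter, given above, the Fbxo3 start at Lmo2 +69.8 kb, 1.56 ± 0.473 points, and Lyl1 +7.9 kb, -3.15 ± 1.39 points (limma adjusted p = 0.229 and 0.434).

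**Figure D5:**
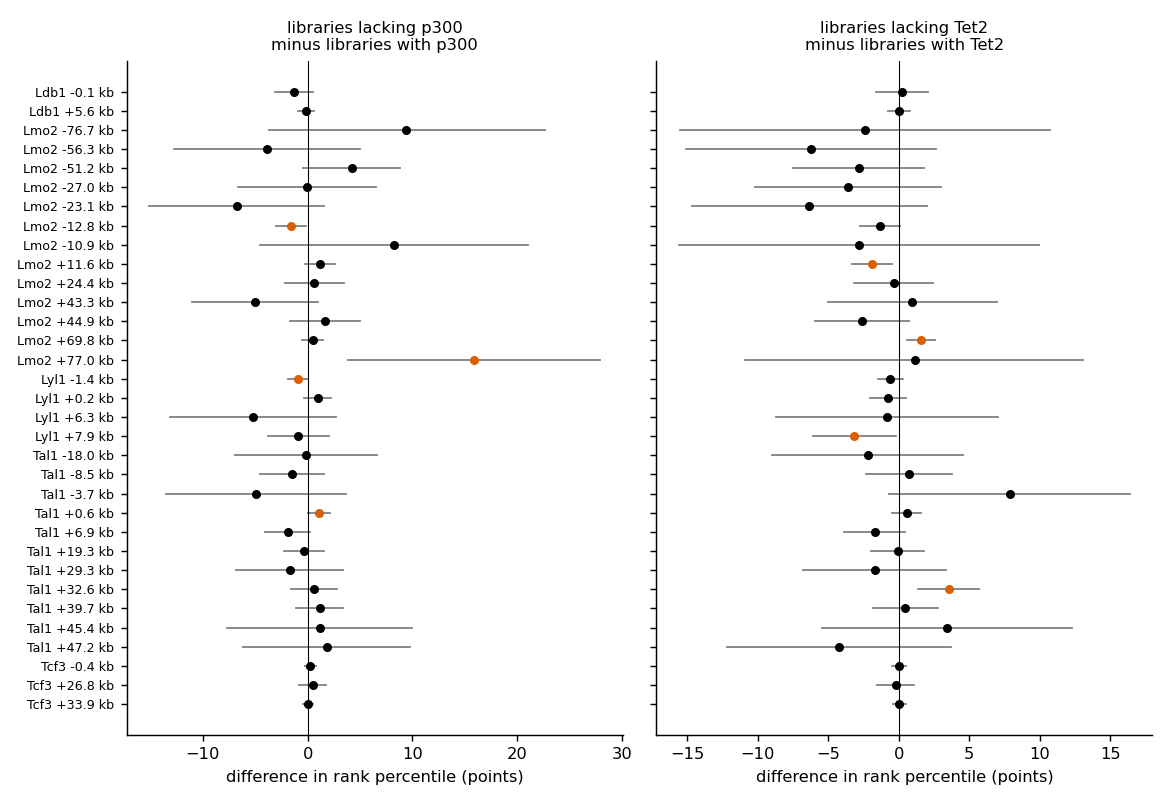
Difference in rank percentile (points) of the 33 regions with a peak in all libraries, for libraries lacking minus having p300 (left) and Tet2 (right). Points are limma estimates and lines their 95% intervals; orange marks an unadjusted p under 0.05, which 4 regions reached for each loss (12.8% and 10.7% of all tested regions did) and 0 kept after adjustment.

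Presence of whole regions gave few contrasts. No region of the 5 genes (0 of 119) had a peak in 4 of 4 libraries of P300KO_TET2KO and 0 of 4 of TET2KO or the reverse, which 0.0726% of all merged regions did. The Tcf3 +15.1 kb region (chr10:80418159-80418702, intron) came closest, with a peak in 2 WT, 2 P300KO, 1 TET2KO and 4 P300KO_TET2KO libraries. Its percentiles were 12.1 in TET2KO replicate 3 and 24.6, 28.1, 17.6 and 21.4 in P300KO_TET2KO, low in all. It was in 6 of 8 libraries lacking p300 and 3 of 8 with p300. At 3 or more of 4 P300KO_TET2KO and at most 1 of 4 TET2KO libraries there were 3 regions of the 5 genes, which 1.19% of all merged regions met. The others were Lmo2 -2 kb, with 3 WT, 3 P300KO, 1 TET2KO and 3 P300KO_TET2KO libraries, and the Tal1 +2.1 kb region (chr4:115058418-115058619, intron), with a peak in 0 WT, 0 P300KO, 1 TET2KO and 3 P300KO_TET2KO libraries. Its percentiles were 47.3 in TET2KO replicate 1 and 44.9, 57.1 and 40.4 in P300KO_TET2KO replicates 1 to 3. Its difference by p300, 3 of 8 against 1 of 8, was equalled at Tal1 +57 kb (3 against 1) and +60.9 kb (2 against 0). The Lmo2 region at -55.6 kb (chr2:103902285-103902676, intergenic), singled out after its values were seen, had a peak in 4 WT, 3 P300KO, 1 TET2KO and 0 P300KO_TET2KO libraries. It was thus in 7 of 8 libraries with Tet2 and 1 of 8 lacking Tet2, a pattern at least this clear in 38 of 296215 merged regions (0.0128%). Its percentiles were low, 9.38, 36.1, 6.62 and 9.47 in WT, 38.3, 39.3 and 7.93 in P300KO replicates 1, 2 and 4, and 22 in TET2KO replicate 4. Less than 1 kb away, the -56.3 kb region (chr2:103901379-103902156) had a peak in all 16 libraries, at 43.8 to 81.5.

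Genes of the same pathway were read with 10 kb either side. They were the Gata partners Gata1 and Gata2, the E protein genes Tcf12 and Tcf4, the single-stranded DNA binding cofactors Ssbp2, Ssbp3 and Ssbp4 that stabilise Ldb1, the corepressors Cbfa2t3, Kdm1a and Rcor1, the Id inhibitors Id1, Id2 and Id3, the relatives Lmo1, Lmo4 and Tal2, and Runx1, Erg, Fli1, Spi1, Gfi1b and Hhex. These 22 genes had 740 regions, of which 114 entered the fit. With p300 loss 0 rose and 1 fell, against 0.552% of all tested regions that fell, and with Tet2 loss, between P300KO_TET2KO and TET2KO and for the interaction 0 passed. The 1 region lies in an intron of Cbfa2t3 (chr8:122666376-122667321), which encodes a corepressor of the complex, and was lower without p300 by -12.1 ± 2.69 points (limma, adjusted p = 0.0463). With the replicate number as a block its limma adjusted p was 0.0854, and it was called in 3 of 21 alternatives, with adjusted p from 0.0273 to 0.911. In region counts, Kdm1a had 1.75 more regions and Tcf12 3.12 more without Tet2 (exact permutation p = 0.0139 and 0.0293, both adjusted to 1 over all genes), the 2 of 22 with an exact p under 0.05 against 3.88% of all genes, and 0 of the 22 had an exact p under 0.05 for p300 loss.

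As a last description, the start regions of other protein-coding genes were ordered by how closely their percentile followed each member across the 16 libraries, after centring on each deposit set. The highest Pearson correlations among 11975 genes were 0.831 for Tal1 (with Olfr658), 0.896 for Lyl1 (Gtf2f2), 0.917 for Lmo2 at its proximal promoter (1700066B19Rik), 0.839 for Ldb1 (C330018D20Rik) and 0.83 for Tcf3 (Irf7). None of the 5 genes was among the 3 most alike of another, which says little with 3 taken from 11975. How high such maxima run for unrelated genes was not worked out. The next were 2310057M21Rik and Hes6 for Tal1, Impdh2 and Usp9x for Lyl1, Mapkapk3 and C030006K11Rik for Lmo2, Iqgap2 and Fermt1 for Ldb1, and Phf13 and Il27ra for Tcf3.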

How the data were processed

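ATAC-Seq peak lists of 16 libraries were used. Per the labels and methods, the authors trimmed reads with cutadapt 1.9.1, aligned them to mm10 with Bowtie2 2.2.6, removed duplicates, shifted reads for the transposase and called peaks per library with MACS2 2.1.0. The deposited lists give each summit's fold enrichment, a ratio to local background, with −log10 p and −log10 q values, all within 1 library and not comparable between lists. Summits of 1 interval counted as 1 peak, with its highest −log10 p. The members, lists, strings and tests were chosen with earlier results of these data known. Regions named with values were each gene's start, the 2 known Tal1 enhancer positions, the strongest distal region, shared distal regions at Tal1 and Lmo2, and the region whose presence differed most by p300, with ties. Tal1 +6.9 and +32.6 kb, Lmo2 -55.6, -2, -0.3 and +69.8 kb, Lyl1 -1.4, +6.3 and +7.9 kb, Ldb1 +5.6 kb and Tcf3 +26.8 and +33.9 kb were named after their values were seen.

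Percentiles were fitted with limma 3.58.1 (R 4.3.3; genotype and deposit set; eBayes with trend) over all shared regions and adjusted by Benjamini-Hochberg. Counts used exact permutation within deposit set and the other genotype. Two-sided tests were used throughout. In simulated data for p300 loss over 39310 regions the fit recovered 39 of 100 planted shifts of 5 points and 75 of 100 of 15 points. It also called 10 regions without a planted shift. Planted values had no ceiling at 100, as percentiles have. These shares therefore do not give the power for the 16 regions of the 5 genes with a mean above 85. Sequence came from RefSeq GRCm38.p6, read with pysam 0.24.0; GENCODE gave gene positions. Same-numbered libraries correlated at 0.135 or more in their deviations from group means (24 of 24 pairs over 0.1). So did libraries of other numbers in the same set, with a median of 0.38 against 0.377. A shared number thus went with no more likeness than a shared deposit set, which the labels do not explain. Within sets 0 of 24 pairs were over 0.1, but there the 2 libraries of a genotype mirror each other, so these pairs are not independent. Replicates pooled 2 mice each, so p-values measure the spread between such pools. The depth of each library is unknown, so no counting interval is given. Some marker genes and 1 sequence are not reported here.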

Additional observations from a re-analysis of the deposited data

Results flagged for a closer look

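With 4 libraries in a group, 8 of 121 groups held 1 library that stood apart from the other 3 by Dixon's criterion, which chance gives in about 1 of 20 groups. Tal1 had 14 regions in WT replicate 3 against 13 in each of the other 3. At Lmo2, WT replicate 1 stood apart at +77 kb (11.4), at +44.9 kb (78.7) and at -10.9 kb (77.5, above the others), P300KO replicate 1 at -10.9 kb (40.8) and TET2KO replicate 4 at -51.2 kb (66.8). At Tal1, WT replicate 2 stood apart at +45.4 kb (43.3) and WT replicate 3 at +47.2 kb (66). Without WT replicate 1 the Lmo2 +77 kb difference with p300 loss was 9.96 points, the lowest of the values with 1 library left out.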

How the results depend on the processing

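Region counts at the 5 loci stayed on their side of the threshold without turning to the opposite sign in 61 of 75 alternatives over all libraries and in 190 of 200 with 1 library left out. A difference of exactly 0 was counted as not turned, and some of these were 0, such as Ldb1 with p300 loss without WT replicate 1. For Tal1 the difference with p300 loss passed at a −log10 q of at least 2 (1.38, exact permutation p = 0.0123) and with at least 50% of a region covered (1.75, exact permutation p = 0.0247), and leaving out 1 library gave 0.75 to 1.5, past the threshold without TET2KO replicate 1 or 3 or P300KO_TET2KO replicate 1. Tal1 with Tet2 loss passed at a −log10 q of at least 2 (1.62, exact permutation p = 0.00617) and without P300KO replicate 2 (range 0.5 to 1.25). Tcf3 with p300 loss gave 0.75 at that q value (exact permutation p = 0.0417), at which WT replicate 1 kept the fewest peaks, 44349 of 98544. Ldb1 with Tet2 loss gave 1.75 with 50% covered (exact permutation p = 0.0278), and 0.625 to 1.12 with 1 library left out, past the threshold without TET2KO replicate 3. Lmo2 with Tet2 loss lost its call at a −log10 q of at least 2 (-0.25), among the strongest 50000 peaks (-0.625), with 50% covered (-1.38) and without deposit set in the design (-2.75, exact permutation p = 0.204), and gave -3.25 to -2.25 with 1 library left out. Lmo2 with p300 loss turned to 1.25, 1.12 and 0.375 under the first 3 of these, and Ldb1 among the strongest 50000 peaks to -0.75 with p300 loss and -0.25 for P300KO_TET2KO against TET2KO. With 1 library left out Ldb1 gave -0.125 to 0.375 and -0.25 to 0.75 for these, and Lyl1 -0.25 to 0.75 for P300KO_TET2KO against TET2KO. The cause was not tested.

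The fit called 0 regions of the 5 genes under every alternative run. The near-zero differences at Tal1 +19.3 kb changed sign at a −log10 q of at least 2 (2.06 with p300 loss, 3.18 with Tet2 loss), among the strongest 50000 peaks (0.339 and 0.172), as a normal score (7.3e-05 with p300 loss) and with 1 library left out (-0.558 to 0.288 and -0.519 to 0.508). At Tal1 +39.7 kb with Tet2 loss leaving out 1 library gave -0.43 to 1.23, and Lyl1 +7.9 kb with Tet2 loss was 0.377 at a −log10 q of at least 2. A looser rule of 3 of 4 against at most 1 of 4 libraries gave 3 regions gained in P300KO_TET2KO over TET2KO (1.19% of all regions were), and without TET2KO replicate 3 there was 1 (range 0 to 1). With the replicate number as a block, in place of the deposit set, Lmo2 with Tet2 loss gave -2.75 (exact permutation p = 0.0469), and the pairing changed no call but that of the Cbfa2t3 region. The Lmo2 -55.6 kb region, in alternatives chosen after seeing the data, was in 5 libraries with Tet2 and 1 without at a −log10 q of at least 2, and in 0 among the strongest 50000 peaks. Unknown depth and lists of unequal length limit every count, and the reported fit left out any region seen in under 16 libraries.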
